A study of Mus musculus with 2 samples.

Results

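Foxa1, Foxa2 and Foxa3 are the 3 mouse genes of the Foxa family of forkhead transcription factors. They were taken by symbol from the RefSeq gene table, as 3 of 21631 protein-coding genes on chromosomes 1 to 19 and X. For each gene, all chromatin loops were collected that had an anchor at an end of the gene, enclosed the gene, or had an anchor within 1 Mb of it. The loops came from Micro-C, which fixes chromatin, digests it with micrococcal nuclease and ligates ends that lie close together in the nucleus. Embryonic stem cells of the male mouse line V6.5, grown on gelatin, were used. All samples were wild type and were taken 48 hours after transfection with 50 nM of siGLO, a control siRNA, and this group is called siControl. It holds 2 samples, and the data are 1 list of 4982 loops for the group. The list has no values per sample, so no spread between replicates could be measured and nothing below was tested. The read depth is unknown.

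Foxa proteins are called pioneer factors because they bind their sites on DNA that is still wrapped in nucleosomes and make it accessible to other factors. Foxa1 and Foxa2 are needed for the formation of endoderm organs such as liver, lung and pancreas, and Foxa2 also for the node, notochord and floor plate. Foxa3 acts later, in gut endoderm and liver. These genes are known to be largely silent in undifferentiated embryonic stem cells, and their expression was not measured here. Foxa1 and Foxa2 each lie on a chromosome segment with Nkx2 and Pax genes, and this grouping of Nkx2, Pax1/9 and Foxa genes is shared by chordates and their relatives and is known as the pharyngeal gene cluster.

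Foxa1 and Foxa2 had ends at loop anchors, and Foxa3 had none. Foxa1 (chromosome 12, 57540628 to 57548029, minus strand, mm10) had 3 such loops. Foxa2 (chromosome 2, 148042877 to 148046969, minus strand) had 2. Foxa3 (chromosome 7, 19013283 to 19023539, minus strand) had 0 loops at its ends and 0 loops enclosing it. An end at 1 or more anchors was found for 9.04% of protein-coding genes, at anchors of 2 or more loops for 1.14%, and at anchors of 3 or more for 0.162%. The members were proposed with these loops known, so their 2 of 3 is a description.

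The 250 bases before the start sites are shown because the start sites of Foxa1 and Foxa2 lay inside loop anchors and that of Foxa3 did not. The only listed start site of Foxa1, 57546111, lies inside its gene record, which runs to 57548029. The Foxa1 window therefore lies within the record and not upstream of it. The sequences are from RefSeq (GRCm38.p6, minus strand, 5′ to 3′), at chr12:57546112-57546361, chr2:148046970-148047219 and chr7:19023540-19023789. Capitals mark GTAAACA, the reverse complement of the forkhead motif TGTTTAC, in Foxa1, and AGGGGGCGC, a short form of the CTCF motif, in Foxa3.
Foxa1: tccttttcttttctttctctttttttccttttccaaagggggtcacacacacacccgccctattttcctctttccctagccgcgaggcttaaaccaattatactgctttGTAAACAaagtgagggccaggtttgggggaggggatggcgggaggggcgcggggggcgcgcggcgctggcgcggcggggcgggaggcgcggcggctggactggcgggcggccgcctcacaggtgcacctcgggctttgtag
Foxa2: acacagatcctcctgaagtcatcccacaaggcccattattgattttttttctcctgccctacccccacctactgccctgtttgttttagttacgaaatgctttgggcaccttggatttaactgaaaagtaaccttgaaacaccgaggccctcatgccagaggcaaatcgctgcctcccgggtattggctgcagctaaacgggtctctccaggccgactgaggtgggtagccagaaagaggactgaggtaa
Foxa3: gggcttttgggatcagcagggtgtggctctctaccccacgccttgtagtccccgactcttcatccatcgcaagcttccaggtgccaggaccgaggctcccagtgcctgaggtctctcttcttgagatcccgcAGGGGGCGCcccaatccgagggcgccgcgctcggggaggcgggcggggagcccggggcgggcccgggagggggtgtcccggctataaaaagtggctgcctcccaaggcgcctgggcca

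Both strands were searched. The forkhead motif TGTTTAC matched 2.64% of 21045 listed promoters of protein-coding genes, and AGGGGGCGC, chosen after these sequences had been seen, matched 1.56%. A longer CTCF consensus with free positions, which matched 0.922% of promoters, had no match in the windows of the 3 genes. These are matches of letters only. The Foxa1 window held 21 CG dinucleotides and the Foxa3 window 18, against a median of 10 over all listed promoters. Foxa2 has 3 listed start sites, whose windows held 6, 20 and 13 CG dinucleotides, and all 3 start sites lay in the anchors of its loops.

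At the Foxa1 locus, the longest loop at the gene joined it to Nkx2-1, which encodes a homeobox factor of thyroid, lung and ventral forebrain. The loop ran from 56530001 to 56540000 at Nkx2-1 to 57540001 to 57550000 at Foxa1, spanned 1010 kb and was listed at 10 kb pixels. Pixels are the bins of the contact map, and span is counted from the midpoint of 1 anchor to that of the other. The peak score, a score of the authors' loop caller with no unit, was 5.04, at percentile 82.8 of the 3047 loops of 10 kb pixels. It is a value of the whole cell population, so frequent contact in few cells and weak contact in many cannot be told apart. Among the 496 of these loops with a span within 1.5 times of its own, it stood at percentile 73.3. The peak pixel itself, on the authors' map, was at percentile 23.5, so this loop ranked high in score and low in pixel value. That percentile is over all 3047 loops of 10 kb pixels, whatever their span. The span of this loop was at percentile 93.4 of them, and no pixel percentile among loops of like span is given here. Wholly between its anchors lay 5 protein-coding genes, and the near anchor also held the first bases of Ttc6, whose record overlaps Foxa1.

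The Foxa1 loop of highest peak score reached Pax9, a paired-box factor of the pharyngeal pouches and teeth. It joined 56695001 to 56700000 with 57545001 to 57550000 over 850 kb at 5 kb pixels. Its peak score of 8.57 ranked 40 of the 1265 loops of 5 kb pixels, at percentile 96.9. Few loops of 5 kb pixels were as long, since its span stood at percentile 98.5. Against the 73 loops of like span, its score was at percentile 89.7. The start sites of Pax9 (56695471) and Foxa1 (57546111) both lay inside these anchors.

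The last loop at Foxa1 was short. It joined 57280001 to 57285000, inside the record of Mipol1, to 57540001 to 57545000 over 260 kb, with a peak score of 5.87 at percentile 76.0 of 5 kb pixels. Mipol1 is the next protein-coding gene toward lower coordinates, 83.4 kb from Foxa1. The near anchor of this loop held the 3′ end of Foxa1 and not its listed start site, which lay in the adjoining 5 kb bin used by the Pax9 loop. With start sites alone, Foxa1 therefore had 2 loops and not 3.

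At the Foxa2 locus, the same kinds of genes lay at the far anchors. The loop of 10 kb pixels from 147180001 to 147190000 to 148040001 to 148050000 spanned 860 kb, and its peak score was 10.1. It ranked 18 of 3047 loops of its pixel size, at percentile 99.4, and 5 of the 635 loops of like span. Its peak pixel was at percentile 95.8. The far anchor lay inside the record of Nkx2-2, a homeobox factor of the ventral neural tube and of pancreatic endocrine cells, and held the Nkx2-2 start site (147186402). It also held ends of the long noncoding RNA genes Nkx2-2os and 6430503K07Rik. The near anchor held an end of 9030622O22Rik, a noncoding gene 2.36 kb from Foxa2.

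The other loop at Foxa2 reached Pax1, a paired-box factor of sclerotome and pharyngeal pouches and the relative of Pax9. It joined 147365001 to 147370000, inside the Pax1 record, with 148045001 to 148050000 over 680 kb at 5 kb pixels. Its peak score of 8.28 was at percentile 95.9 of its pixel size and at percentile 88.7 of the 128 loops of like span. Its peak pixel was at percentile 96.8. The Pax1 start site (147364994) lay 7 bp outside the far anchor. No protein-coding gene lay wholly between the anchors, since Pax1 is the nearest one toward lower coordinates, 667.8 kb from Foxa2.

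**Figure D1:**
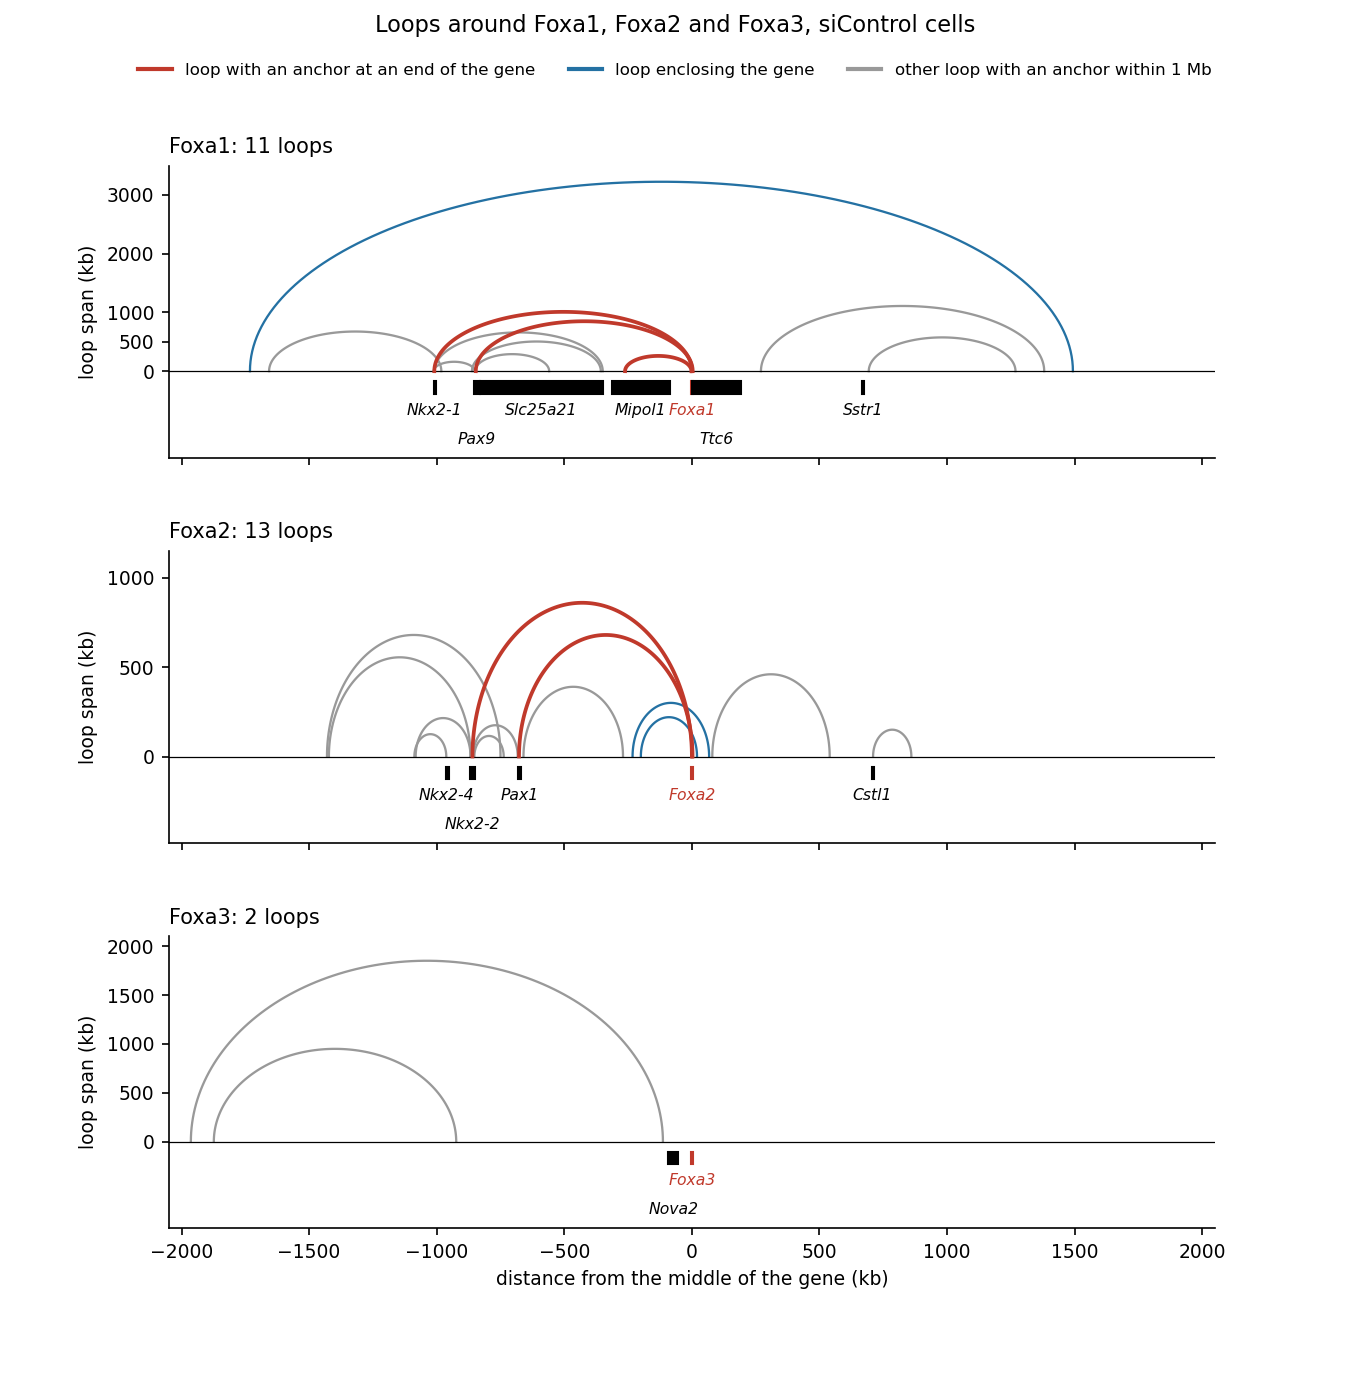
Loops around Foxa1 (top), Foxa2 (middle) and Foxa3 (bottom) as arcs whose height is the span in kb (the vertical scale differs between panels), against the distance in kb from the middle of the gene; boxes are gene records. All loops at an end of Foxa1 or Foxa2 run to the left, and Foxa3 has 2 loops in its surroundings, neither of which reaches it.

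All 5 loops at Foxa1 and Foxa2 ran toward lower coordinates, which is the direction of transcription for genes on the minus strand. Over all protein-coding genes of known strand with 1 anchor of a loop at a gene end, 984 of 1759 pairs of gene and loop (55.9%) ran along transcription. Of 195 such genes with 2 or more loops, 156 (80%) had them all on 1 side and 92 (47.2%) had all of them along transcription. Loops to 1 side were thus usual for genes with several loops.

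The far genes were also joined to each other. On chromosome 12, a loop of 160 kb at 5 kb pixels ran from Nkx2-1 (56530001 to 56535000) to Pax9 (56690001 to 56695000), with a peak score of 5.67 at percentile 72.2. On chromosome 2, a loop of 175 kb at 5 kb pixels ran from inside Nkx2-2 (147185001 to 147190000) to the Pax1 start site (147360001 to 147365000), with a peak score of 5.58 at percentile 70.1. Foxa1, Pax9 and Nkx2-1, and likewise Foxa2, Pax1 and Nkx2-2, were therefore joined pairwise by 3 loops each. The order Nkx2, Pax, Foxa was the same, and the spans were 160, 850 and 1010 kb at Foxa1 and 175, 680 and 860 kb at Foxa2.

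**Figure D2:**
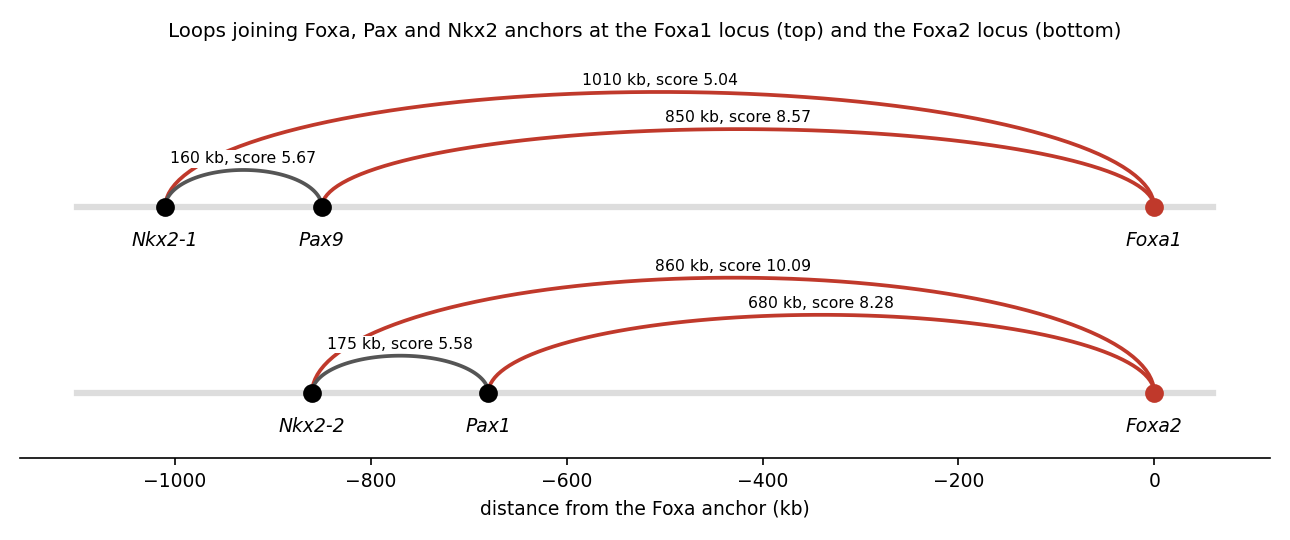
The 3 loops that join Foxa1, Pax9 and Nkx2-1 (top) and Foxa2, Pax1 and Nkx2-2 (bottom), drawn to scale along the axis as distance in kb from the Foxa anchor, with the span and peak score of each loop; arc height has no scale. Loops at Foxa are red and loops between Nkx2 and Pax are grey. The Nkx2 to Pax spans are 160 and 175 kb, and the loops at Foxa span 680 to 1010 kb.

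Sets of 3 anchors joined pairwise were few in the list. The search was chosen after the Foxa loops had been seen. With overlapping or adjoining anchors merged, the list held 60 such sets, and 4 of them had an end of a protein-coding gene at all 3 anchors. The Foxa1 and Foxa2 sets were 2 of these 4. In the Foxa2 set, the anchors of its own loops at Nkx2-2 held the start site but no end of the Nkx2-2 record, which came in with the adjoining anchor of other loops (147175001 to 147180000). The other two joined Tg, Ccn4 and St3gal1 on chromosome 15, and Prpf31 and Cnot3, Ttyh1, Leng8 and Leng9, and Eps8l1 on chromosome 7. At a corner of any of the 60 sets lay 0.273% of protein-coding genes. With only overlapping anchors merged, 11 sets remained, 1 of which had gene ends at all 3 anchors. That was the Foxa1 set. At both loci the 2 anchors at the Pax gene, those of the Foxa and Nkx2 loops, adjoin without overlap, and at Pax9 they are bridged by a 10 kb anchor (56690001 to 56700000) of a further loop of 290 kb. At a corner of these 11 sets lay 0.0509% of protein-coding genes.

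Loops between start sites of protein-coding genes were likewise few. Start sites were listed for 17274 genes, and for none on chromosome 18, so these counts are lower limits. Of these genes 5.2% had a start site at an anchor, and of the members Foxa1 and Foxa2 did. A listed start site lay at both anchors of 101 of 4794 loops (2.11%) on the other chromosomes. The loops from Foxa1 to Nkx2-1, from Foxa1 to Pax9 and from Foxa2 to Nkx2-2 were 3 of these. The 175 kb loop between Nkx2-2 and Pax1, which has no anchor at a Foxa gene, also had a start site at both anchors. Of the 101 loops, 25 spanned 850 kb or more, a limit equal to the span of the Foxa1 to Pax9 loop, which therefore meets it by construction. Among the 12 of 5 kb pixels, no loop but this one was as long, and 7 of the 49 of 10 kb pixels were.

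**Figure D3:**
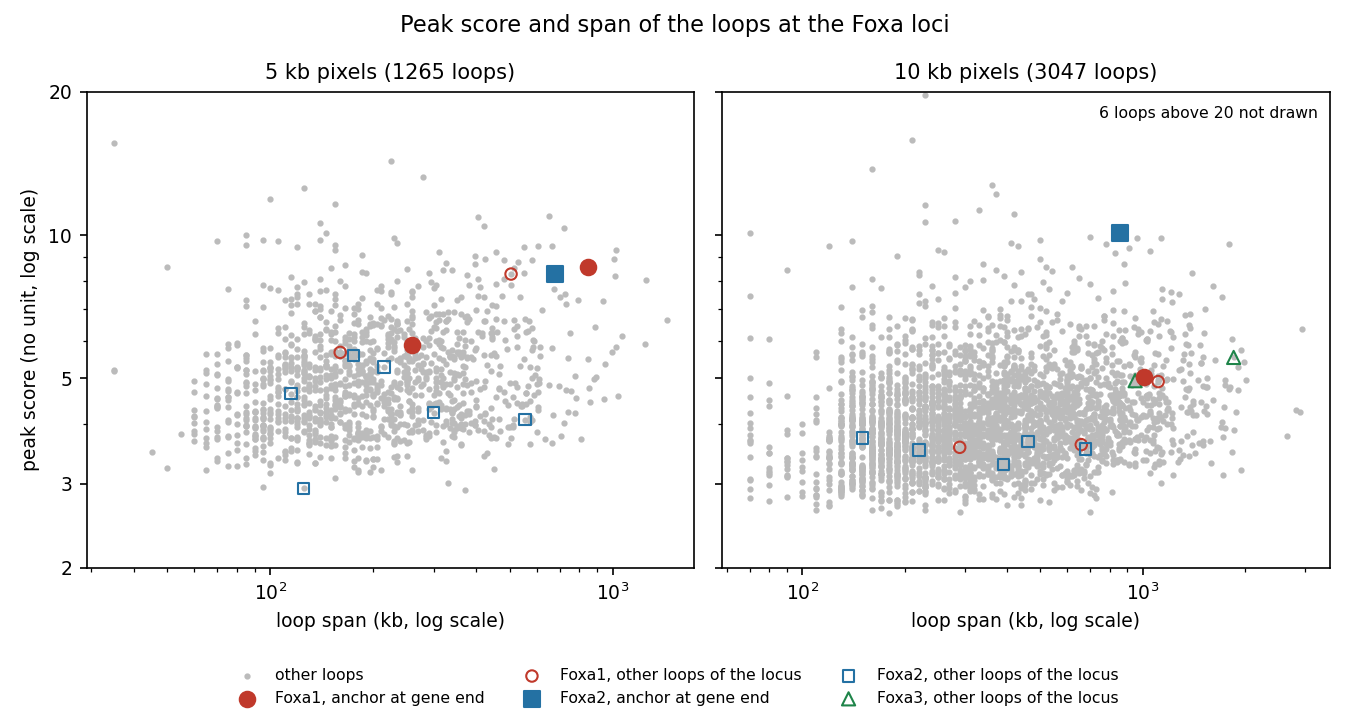
Peak score (no unit, log scale) against span (kb, log scale) for loops of 5 kb pixels (left) and 10 kb pixels (right); filled symbols are loops with an anchor at an end of Foxa1 or Foxa2, open symbols the other loops around the 3 genes, grey points the rest. The Foxa2 loop at 860 kb has a score of 10.1, and the 850 and 680 kb loops of Foxa1 and Foxa2 have scores of 8.57 and 8.28.

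The 5 loops at Foxa1 and Foxa2 had a median peak score of 8.28 and a median span of 850 kb, against 4.16 and 325 kb over all loops. The 5 are of 5 and 10 kb pixels, whose median scores were 4.88 and 3.996. Among loops of like span and the same pixel size, their scores stood at percentiles from 73.3 to 99.3. The 5 loops did not all stand out from their surroundings. At Foxa1, a loop of 505 kb that touched neither the gene nor a protein-coding gene end (56680001 to 56685000 to 57185001 to 57190000) scored 8.28, as high as the Pax1 to Foxa2 loop. Its left anchor held an end of the noncoding gene Gm15524, beside Pax9, and its right anchor lay in Slc25a21, which encodes a mitochondrial carrier. The other 7 loops around Foxa1 without an anchor at the gene scored from 3.51 to 5.67. At Foxa2 the 11 loops without an anchor at the gene scored from 2.94 to 5.58, below both loops at the gene.

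Loops that passed over the genes differed between them. Foxa1 was enclosed by 1 loop, of 3225 kb at 25 kb pixels, which ran from Ralgapa1 to an anchor with ends of Gemin2 and Trappc6b and had a peak score of 4.61. This loop enclosed 13 protein-coding genes and belonged to the longest loops of its pixel size, at percentile 96.6 in span. Foxa2 was enclosed by 2 short loops, of 300 kb (peak score 4.24) and 220 kb (3.53), at percentiles 29.2 and 27.0 of their pixel sizes. No gene end lay at their anchors, and Foxa2 was the only protein-coding gene inside each. Of all protein-coding genes, 32.6% were enclosed by 1 or more loops.

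Foxa2 and Foxa1 lay in regions with many loops and Foxa3 in a region with few. Anchors within 1 Mb belonged to 13 loops at Foxa2, 10 at Foxa1 and 2 at Foxa3. The median over protein-coding genes was 5, with quartiles at 3 and 7. Of all protein-coding genes, 94.1% had such a loop, 2.21% had 13 or more, 11% had 10 or more and 19.9% had 2 or fewer. With the enclosing loop, whose anchors lay farther away, the Foxa1 locus had 11 loops in all, from 160 to 3225 kb. The 13 loops of the Foxa2 locus spanned 115 to 860 kb.

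Around Foxa1, the loops that did not touch the gene fell on either side of it. On the lower side most of them ended in the Nkx2-1, Pax9 and Slc25a21 records. Nkx2-1 was joined to an end of Slc25a21 over 660 kb (peak score 3.63), and Pax9 to a site inside Slc25a21 over 290 kb (3.58). A loop of 675 kb (3.67) ended between Nkx2-1 and Nkx2-9. On the higher side, loops of 1110 kb (4.92) and 575 kb (3.51) had their nearest anchors 262.0 and 677.0 kb from Foxa1, and no loop joined Foxa1 to a site on that side. The first protein-coding gene beyond Foxa1 and Ttc6 there was Sstr1, a somatostatin receptor gene 663.4 kb away. The gene next to Foxa2 on its higher side was Sstr4, of the same receptor family, 348.4 kb away.

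Around Foxa2, most of the other loops lay near Nkx2-2. Nkx2-2 had loops of 555 kb (4.09) and 215 kb (5.29) toward lower coordinates, from an anchor with an end of its record, and a loop of 115 kb (4.64) toward higher coordinates from inside it. Nkx2-4, a homeobox gene on its lower side, had a loop of 125 kb with a peak score of 2.94, which ranked 1264 of 1265 loops of 5 kb pixels. A loop of 680 kb (3.56) ended at the pseudogene Gm14113, and loops of 390 kb (3.29) and 460 kb (3.68) lay on either side of Foxa2 with no gene end. A loop of 150 kb (3.75) started at Cstl1.

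Foxa3 lies in a gene-dense region, between Irf2bp1, 6.52 kb away, and Sympk, 0.838 kb away. It had 74 protein-coding genes within 1 Mb, against 19 for Foxa2 and 8 for Foxa1. The nearest loop anchor, 18900001 to 18910000 in the record of Ccdc61, lay 103.3 kb from Foxa3 and belonged to a loop of 1850 kb toward lower coordinates (peak score 5.53), whose far anchor lay in the record of Hif3a. The other loop spanned 950 kb (4.94), with its nearest anchor 913.3 kb away. Genes with as many neighbours had few loops in general: the 2195 protein-coding genes with 74 or more neighbours had a median of 3 loops, and 46.0% of them had 2 or fewer. On chromosome 7, 47.9% of 2030 genes had 2 or fewer. Of these 2195 gene-dense genes 3.96% had an end at an anchor. The count at Foxa3 was thus near that of genes in like surroundings. For surroundings like those of Foxa1, the 1877 genes with 8 or fewer neighbours had a median of 4 loops, and 6.71% of them had 10 or more. For surroundings like those of Foxa2, the 7146 genes with 19 or fewer neighbours had a median of 6 loops and an upper quartile of 8, and 15.3% had 10 or more. The share with 13 or more, the count at Foxa2, is not given here for these genes or for chromosome 2. An end at an anchor was found for 13.7% of the genes with 8 or fewer neighbours and 12.9% of those with 19 or fewer, above the 9.04% of all genes. On chromosomes 12 and 2, which carry Foxa1 and Foxa2, 16.1% and 14.6% of genes had 10 or more loops.

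**Figure D4:**
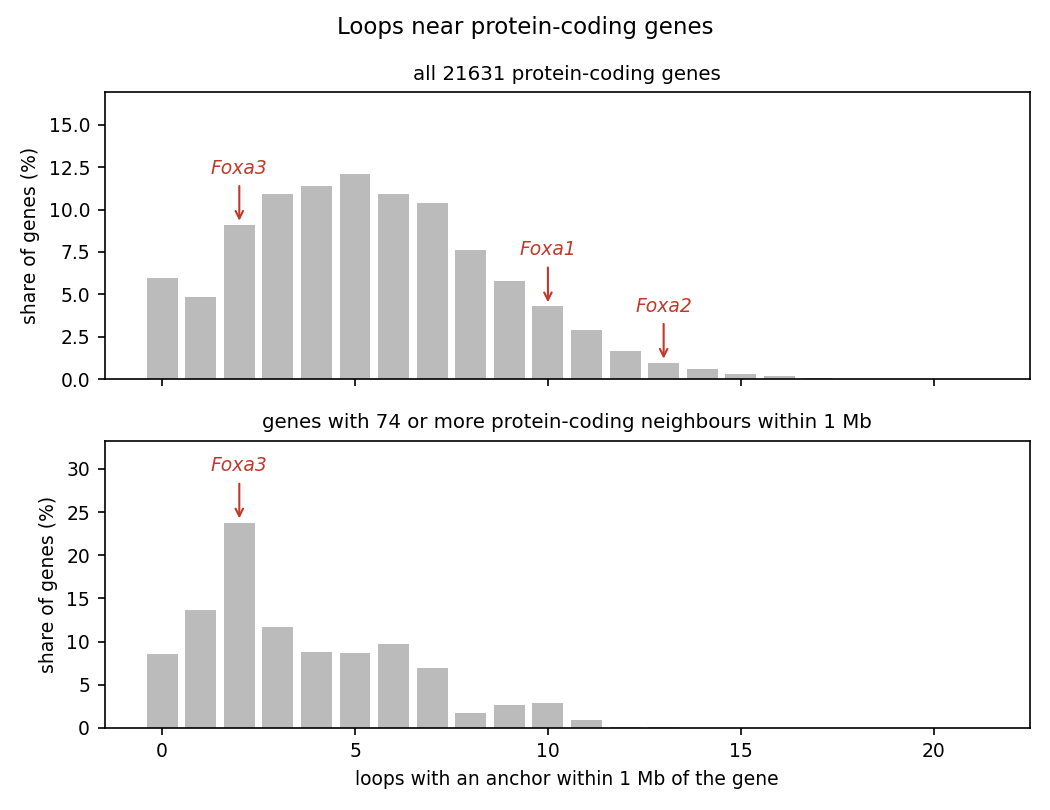
Share of genes (%, bars from 0) by the number of loops with an anchor within 1 Mb, over all 21631 protein-coding genes (top) and over the 2195 with 74 or more protein-coding neighbours within 1 Mb (bottom); arrows mark the members. Foxa2 at 13 and Foxa1 at 10 lie in the upper tail, and Foxa3 at 2 lies in the tallest bar of the lower panel.

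Likeness between genes was measured as the Jaccard index of their loops at an end or enclosing, that is, shared loops over all loops of both genes. For Foxa1, with 4 such loops, the most alike were Ttc6, Mipol1 and Prps1l3 (index 0.75, 3 shared loops each), Slc25a21 (0.6) and Nkx2-9 (0.333). All of these but Ttc6 lie between the anchors of the Nkx2-1 loop, and Ttc6 overlaps Foxa1. For Foxa2, also with 4 loops, only Pax1 shared any by this measure, with an index of 0.2. The shared loop was that of 860 kb to Nkx2-2, which encloses Pax1. The far anchors of the 860 and 680 kb loops lie inside the Nkx2-2 and Pax1 records and hold no end of them. The index therefore does not count the 860 kb loop for Nkx2-2 or the 680 kb loop for Pax1. The far anchor of the 850 kb loop of Foxa1 likewise lies inside the Pax9 record and holds no end of it. That loop is not counted for Pax9. Foxa3 had no loops to share.

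Among the forkhead genes described here, Foxa1 and Foxa2 had more loops at their ends than the others. Of 43 forkhead genes, 9 had an end at an anchor (20.9%), and without the Foxa genes 7 of 40 did (17.5%), against 9.04% of all protein-coding genes. These 7, Foxc1, Foxc2, Foxd1, Foxl2, Foxo1, Foxp1 and Foxr2, had 1 loop each, with peak scores of 3.63 to 5.36 and spans of 150 to 1200 kb. The list was chosen with earlier results of these data known, so its shares are a description. The median number of loops within 1 Mb was 5 for the list and 5 for all genes. With start sites alone, 6 of the 28 forkhead genes with a listed start site were at an anchor, against 5.2% of all genes with one. When the lower-scoring loops of each pixel size were left out, 5 of the 43 forkhead genes had an end at an anchor, against 4.72% of all protein-coding genes. Foxa1 and Foxa2 are among the genes in both of these counts, and counts without them are not given here.

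Among 34 genes of endoderm specification and function, 9 had an end at an anchor (26.5%), and without the Foxa genes 7 of 31 did (22.6%), against 9.04% of all genes. This list too was chosen with earlier results of these data known, so its shares are a description. Eomes, which acts at the start of endoderm and mesoderm formation, had a loop of 445 kb (7.15). Shh, the hedgehog ligand of gut and floor plate, had 2 loops, with a highest score of 5.73 at 300 kb. Nkx2-1 had 3 loops, of 160, 660 and 1010 kb, all of them loops of the Foxa1 locus described above. Cdx2, of the hindgut and trophectoderm, had a loop of 625 kb (3.79). Onecut1, of liver and pancreas, had one of 700 kb (4.03). Tbx3 had one of 1425 kb (3.997). Ttr, a transport protein made by liver, had one of 150 kb (3.04). Over both lists 16 genes had an end at an anchor, and the highest peak scores among them were those of Foxa2 (10.1) and Foxa1 (8.57). The other 14 genes had highest scores of 3.04 to 7.15. Scores of different pixel sizes are on somewhat different scales, with medians of 4.88, 3.996 and 3.87 at 5, 10 and 25 kb pixels.

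**Figure D5:**
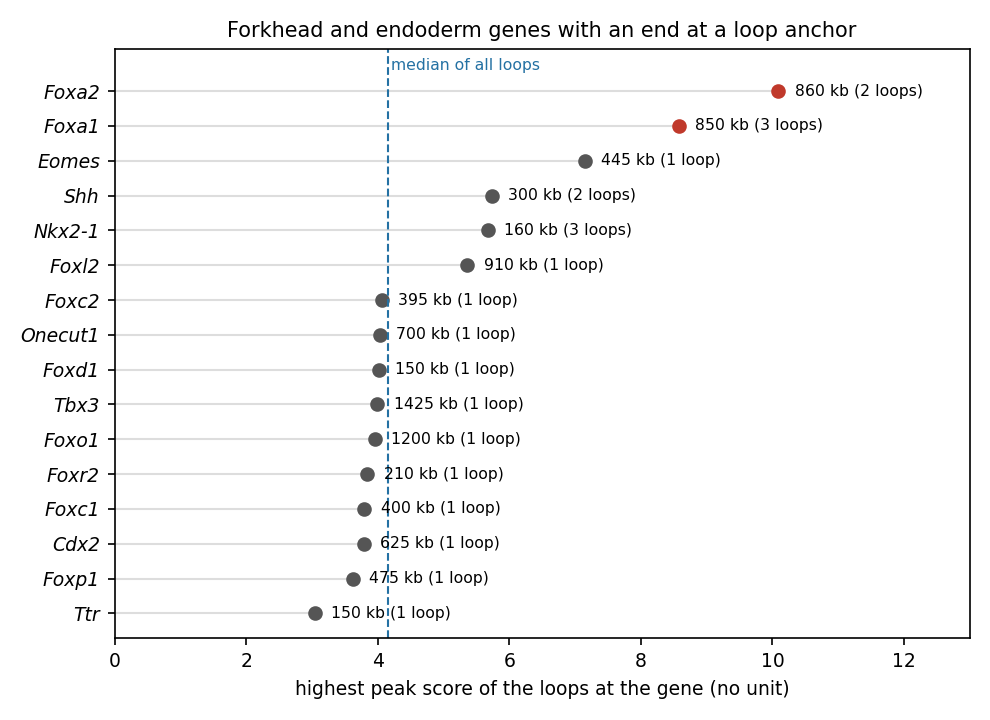
Highest peak score (no unit) of the loops at each of the 16 forkhead and endoderm genes with an end at an anchor, with the span of that loop and the number of loops; Foxa2 and Foxa1 are red and the dashed line is the median of all loops. Foxa2 and Foxa1 stand at 10.1 and 8.57, above Eomes at 7.15.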

How the data were processed

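Micro-C was made from 2 siControl samples. Juicer 1.5.6 and the build mm10 are named in the submitters' processing notes. Not given in the sources used here are the program that called the loops, its settings, and any pooling of the samples. The deposited loop list has no header. Its peak score and regional score, the fraction that behaves like a probability, and the signal of the peak pixel are the authors' values, identified from the numbers and column order, and were used only to rank loops within the list. How the deposited signal was normalized is unknown.

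Anchors were made 1-based and compared with RefSeq gene records (GRCm38.p6, the assembly that mm10 names) in Python 3.11.15 with pandas 2.3.3. A gene end is the first or last base of a record. Start sites came from the RefSeq promoter table. Percentiles count ties equally above and below. Counting was tested on simulated loops, and in 200 of 200 runs for each kind the planted loops or sets were counted correctly. The members and lists were chosen with earlier results of these data known. Named genes are the members, the genes at or nearest their far anchors, their neighbours, the 5 genes most alike in loops, and list genes at anchors. Alternatives were wider anchors, start sites, gene overlap, pixel sizes, a score minimum and other windows. Genes around the loci were named after their loops were seen. Planned protein comparisons were not run, and 1 gene of the forkhead list is not reported here.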

Additional observations from a re-analysis of the deposited data

How the results depend on the processing

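No paired analysis was possible because both samples share 1 list without separate values, and for this reason no fit without replicate 1 or 2 exists either. Under 6 alternatives each, the loops at an end stayed at 3 or 2 for Foxa1, at 2 for Foxa2 and at 0 for Foxa3. Loops enclosing Foxa1 (1) became 0 without 25 kb pixels and 3 with the outer anchor edges, and those enclosing Foxa2 (2) became 0 when only loops scoring above the median for their pixel size were kept and 4 with the outer edges, which take in loops anchored at the gene. Loops within 1 Mb numbered 6 for Foxa1 (10) and 4 for Foxa2 (13) with loops above that median, and 6, 6 and 1 for Foxa1, Foxa2 and Foxa3 in a window of 500 kb. Shares of all genes with such counts are not given here for these settings, so whether these counts are high or usual cannot be said. The list counts were run under alternatives chosen after seeing the data. The forkhead count of 9 (of 43, against 9.04% of all genes) became 5 with loops above that median (4.72% of all genes) and 16 with anchors widened by 10 kb (21.9%). With start sites alone it was 6 of the 28 forkhead genes with a listed start site (5.2% of all genes with one). The endoderm count of 9 of 34 ranged from 6 without 25 kb pixels (7.16% of all genes) to 12 with anchors widened by 10 kb (21.9%). With start sites alone it was 6 of the 22 endoderm genes with a listed start site (5.2% of all genes with one). Foxa1 and Foxa2 are in all of these list counts. Sets of 3 joined anchors with gene ends at all 3 numbered 1 with only overlapping anchors merged, against 4 as reported, also chosen after seeing the data. Fewer loops or genes enter some of these alternatives, and more enter others, such as wider anchors and outer edges. The cause of the changes was not tested. Depth is unknown, so weaker contacts of Foxa3 could not be assessed.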

Other observations

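The Nkx2-2 anchor took part in another set of 3 anchors joined pairwise. With adjoining anchors merged, its loops ran to 146955001 to 146965000 and to 146610001 to 146625000, and these sites were also joined to each other. No protein-coding gene end lay at these far sites, and the set ended 848 kb short of Foxa2.

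The promoters at the far anchors were searched for the same motifs. In the 250 bases before the listed start sites of Nkx2-1, Pax9, Nkx2-2 and Pax1, TGTTTAC, AGGGGGCGC and the longer CTCF consensus were not found on either strand. The listed start sites of Pax9, Nkx2-2 and Pax1 lie inside their gene records, and so do these windows. Anchors are 5 or 10 kb wide, so the windows cover a small part of them.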
